A study of Mus musculus with 6 samples.

Results

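The genes described here are 33 genes of B cells and plasma cells, read on arrays of sorted regulatory T (Treg) cells. They were chosen by name with earlier results of these data known, as 29 genes of B cells and 4 of plasma cells. Shares of all genes set beside them below are therefore description only. Values were taken from probe sets that name exactly 1 gene. Of the 33, 32 had such a probe set, out of 19752 genes measured in this way, and Cd38 is not analysed here. The 32 were 28 B cell genes and the 4 plasma cell genes, each with 1 probe set of its own. The arrays came from 2 groups, 3 of Treg cells from the pancreas and 3 of Treg cells from the spleen. All cells came from female NOD mice of 10 weeks, before diabetes, which carry a reporter allele, Foxp3-ires-gfp, that puts green fluorescent protein under the control of Foxp3. NOD is a strain that becomes diabetic spontaneously as T cells destroy the islets, and the labels give the background as NOD NRB_SFB+ for both groups. Viable cells positive for CD4, TCRb, CD45 and GFP were sorted 2 times, a gate that B cells and plasma cells, which carry neither TCRb nor CD4, should not enter. The labels do not say whether an array held 1 mouse or a pool, so p-values measure the spread between these samples only, which may be technical.

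B cells recognise antigen through a membrane immunoglobulin paired with the signalling chains CD79a and CD79b, and their identity is set up by the transcription factors EBF1 and Pax5. When a B cell becomes a plasma cell, the repressor Blimp-1, the product of Prdm1, shuts much of that programme down, while J chain and the machinery of antibody secretion come on. B cells and plasma cells infiltrate the islets of NOD mice together with T cells. A few of the genes are not restricted to the B lineage: Fcmr, Pou2f2, Cd24a and Tnfrsf13b, for example, can also be transcribed in T cells, and Ly86 and Cd180 in myeloid cells.

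Promoter windows are shown for the pair of members that passed the test between tissues, Jchain and Cd79a, and as examples for a pair of members that hold letters bound by transcription factors that are themselves members. These are Blnk, with the octamer (the site of Oct-2 and its co-activator OBF-1, made from Pou2f2 and Pou2af1), and Cd22, with the EBF1 core. Each window is the 250 bases before the RefSeq start of the gene in GRCm38.p6, written in the direction of the gene. Capitals mark the matches on either strand.
Jchain (chr5:88527898-88528147, minus strand): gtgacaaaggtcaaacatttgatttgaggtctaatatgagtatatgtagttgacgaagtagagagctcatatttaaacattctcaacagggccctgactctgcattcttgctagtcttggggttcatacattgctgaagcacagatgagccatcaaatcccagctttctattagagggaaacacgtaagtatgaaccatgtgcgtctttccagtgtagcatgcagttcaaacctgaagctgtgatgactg
Cd79a (chr7:24897247-24897496, plus strand): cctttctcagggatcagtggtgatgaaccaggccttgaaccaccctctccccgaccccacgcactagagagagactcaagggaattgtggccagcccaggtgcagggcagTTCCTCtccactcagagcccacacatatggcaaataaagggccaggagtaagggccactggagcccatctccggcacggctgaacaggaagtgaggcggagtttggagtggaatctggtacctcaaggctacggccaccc
Blnk (chr19:40994222-40994471, minus strand): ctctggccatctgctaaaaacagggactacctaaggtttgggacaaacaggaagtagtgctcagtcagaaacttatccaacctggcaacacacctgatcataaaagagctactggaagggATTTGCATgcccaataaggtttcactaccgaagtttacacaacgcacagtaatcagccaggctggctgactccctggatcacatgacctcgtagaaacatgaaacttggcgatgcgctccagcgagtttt
Cd22 (chr7:30879029-30879278, minus strand): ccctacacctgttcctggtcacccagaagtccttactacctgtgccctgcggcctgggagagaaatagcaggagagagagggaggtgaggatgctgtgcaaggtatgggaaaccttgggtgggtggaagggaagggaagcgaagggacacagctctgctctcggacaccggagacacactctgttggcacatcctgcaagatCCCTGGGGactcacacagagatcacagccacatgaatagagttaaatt
RefSeq gave 32 windows for 27 of the 33 genes. The octamer ATGCAAAT stood in 2 of the 32 windows, those of Blnk and Vpreb3, or 6.25%, against 1.6% of all 32851 windows of the same length. The EBF1 core CCCNNGGG stood in 4 windows, those of Bank1, Cd22, Sdc1 and Spib, or 12.5% against 11.8%. The shorter GAGGAA of Spi-B and related factors, the capitals in Cd79a, stood in 9 windows or 28.1%, against 23.3% of all windows. The 3 motifs did not overlap in the windows shown, and the Jchain window held none of them. A match is a description of the letters only.

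Among these genes, J chain stood out. Pancreatic Treg samples had a log2 intensity of Jchain 3.31 above that of splenic ones, and Cd79a was 1.86 above. These 2 passed the test over all genes (limma, Benjamini-Hochberg adjusted p under 0.05), both higher in pancreas, and 0 were lower. Over all 19752 genes 0.547% passed as higher and 0.132% as lower. A further 18 members were higher in pancreas at an unadjusted p under 0.05 without passing after adjustment, which makes 20 of 32 at that level against 3.20% of all genes, and 0 were lower, against 3.64%. The arrays of the tissues did not overlap for 16 of the 32 members, all higher in pancreas, against 4.57% of all genes (5.81% were without overlap and lower in pancreas). The median log2 fold change was 0.65 over the 28 B cell genes, 0.34 over the 4 plasma cell genes and -0.000913 over all genes. With values under the background level raised to it, the medians were 0.47 for B cell and 0.30 for plasma cell genes. The plasma cell median rests on 4 genes and moved from 0.19 without pancreas array 2 to 0.52 without pancreas array 1, where the B cell median was 0.54, and with array weights it was 0.51 against a B cell median of 0.31, so these data give no stable order of the medians. The mean was higher in pancreas for 28 of the 32, against 49.8% of all genes. The number of members past the test ran from 1 to 8 when each array in turn was left out of the fit. It was 1 without pancreas array 1 or any one of the spleen arrays, 4 without pancreas array 3 and 8 without pancreas array 2. Over all 19752 genes, 90, 66 and 262 passed without pancreas arrays 1, 2 and 3 in turn. Without spleen arrays 1, 2 and 3 in turn, 64, 87 and 74 genes passed.

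**Figure D1:**
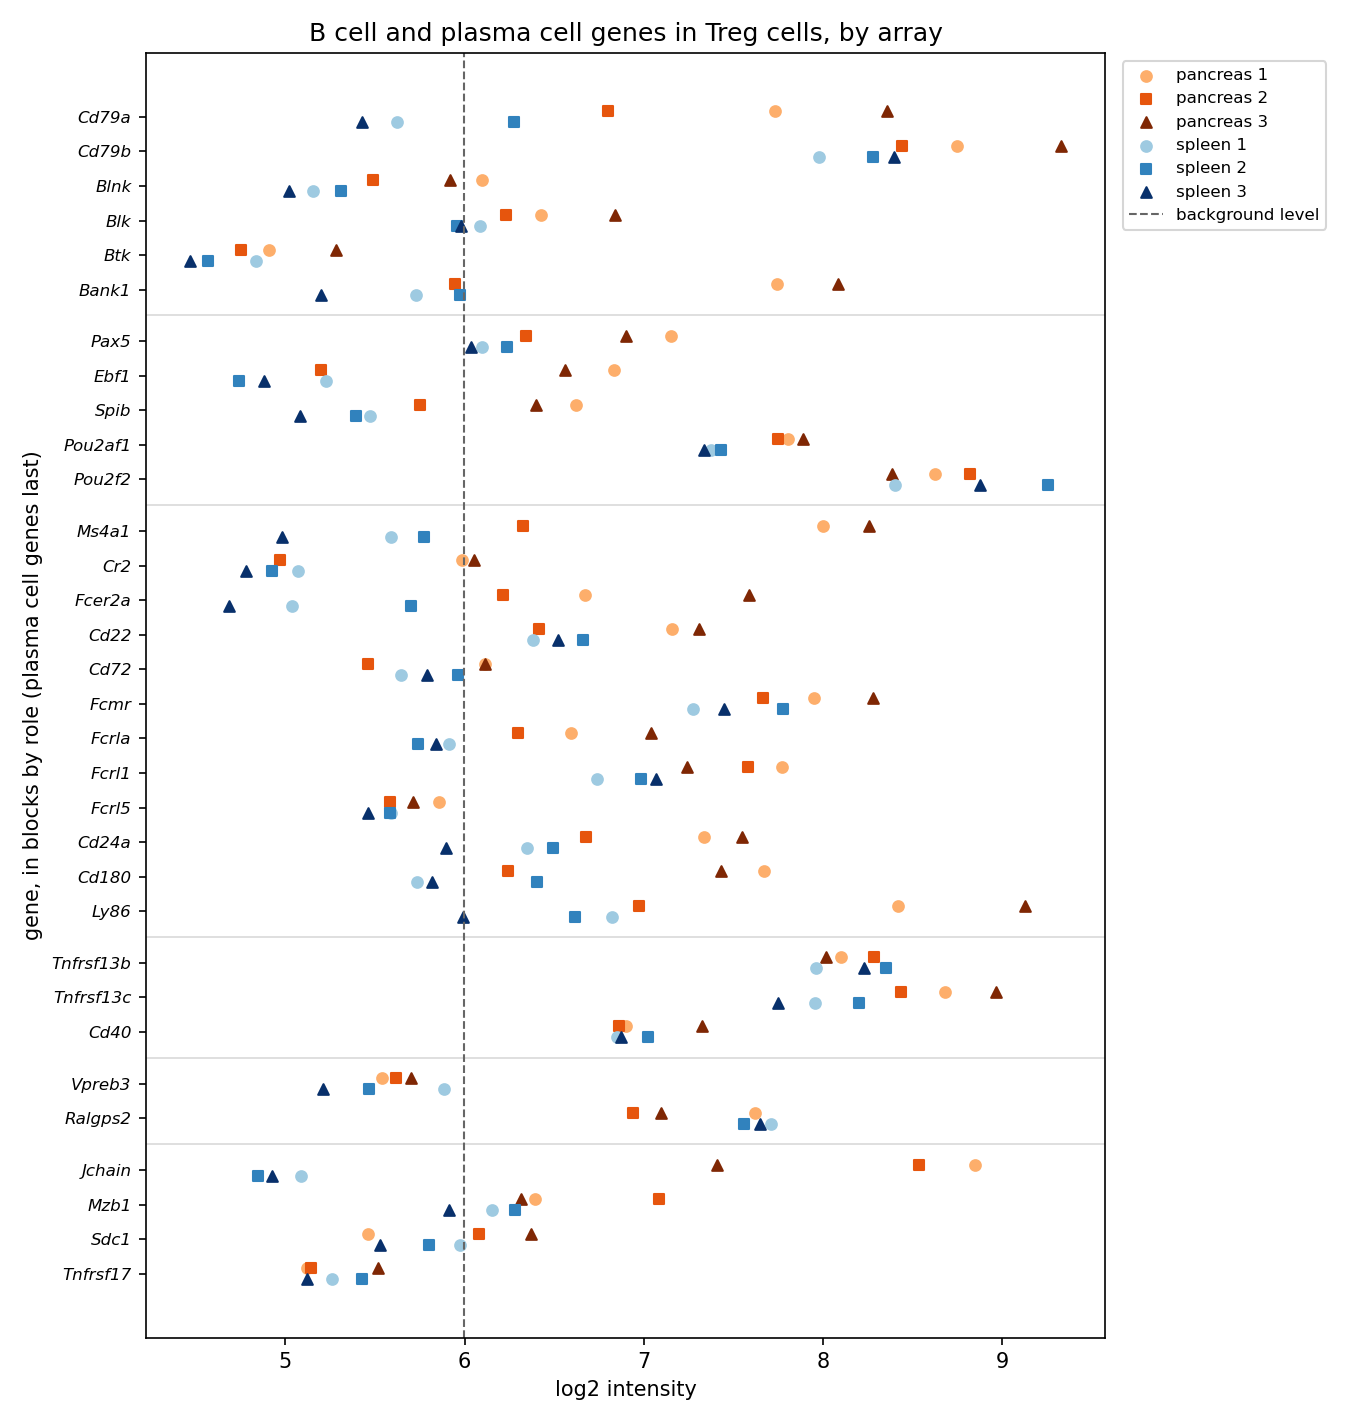
Log2 intensity (horizontal axis) of the 32 measured genes on each of the 6 arrays, in blocks by role with the plasma cell genes last. Orange and brown symbols are pancreas arrays 1 to 3, blue symbols spleen arrays 1 to 3, and the dashed line is the background level of 6.0; for Jchain all 3 pancreas arrays lie above 7.4 and all 3 spleen arrays below the line.

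Markers of other cells moved on the same arrays. All 15 measured acinar genes had a higher mean in pancreas and 13 passed the test, with a mean level over the list of 9.08 to 10.34 on pancreas arrays and 6.16 to 7.27 on spleen arrays. Of 8 measured genes of MHC class II presentation, which B cells, macrophages and dendritic cells share, 4 passed as higher. Of 14 macrophage and dendritic cell genes only Lyz2, the myeloid lysozyme gene, passed, and 9 of the 14, among them Csf1r, Adgre1, Itgax and Flt3, were not above background on any array. That list averaged 5.89 to 6.0 on pancreas arrays and 5.63 to 5.87 on spleen arrays. Of 13 measured T cell identity genes, Foxp3 and Cd4 among them, 0 passed the test in limma (1 had an unadjusted p under 0.05), and their mean level was 11.14 to 11.32 in pancreas and 10.98 to 11.34 in spleen. The interquartile range of the log2 values also differed between arrays, from 2.23 on pancreas array 3 to 3.07 on pancreas array 1. The part that these cells, or the width of the arrays, have in the results below was not tested. In such bulk samples more cells of a type and more RNA per cell cannot be told apart.

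Jchain encodes the J chain, the small protein that joins immunoglobulin M or A units into polymers and that antibody-secreting cells make in quantity. Its log2 intensity was 8.85, 8.54 and 7.41 on pancreas arrays 1 to 3, against 5.09, 4.85 and 4.93 on spleen arrays 1 to 3. All pancreas arrays were above the background level of 6.0 and all spleen arrays were below it, so the groups lay far apart. The group means were 8.27 ± 0.76 in pancreas and 4.95 ± 0.12 in spleen (SD, n = 3 each), a fitted log2 fold change of 3.31 ± 0.31 (SE, limma adjusted p = 0.000975). Since the spleen values lie under background, the difference is given as at least 4.82-fold. Here and below, "at least" refers to background only and does not allow for the spread between arrays. The call held in all 6 leave-one-out fits, with a log2 fold change of 3.02 to 3.74.

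None of the other 3 plasma cell genes passed the test. Mzb1 encodes a chaperone of the endoplasmic reticulum that helps to assemble immunoglobulin in plasma cells, marginal zone B cells and plasmacytoid dendritic cells. It read 6.39, 7.08 and 6.31 on pancreas arrays 1 to 3 and 6.16, 6.28 and 5.91 on spleen arrays 1 to 3. The groups did not overlap, by a margin of a few hundredths, and the gene did not pass the test (log2 fold change 0.48, 95% interval -0.01 to 0.97, limma adjusted p = 0.761). After quantile normalization the Mzb1 groups overlapped, with pancreas array 3 at 6.18 and spleen array 2 at 6.28. Sdc1, the gene of syndecan-1 (CD138), the surface proteoglycan by which plasma cells are sorted and which epithelia also carry, read 5.46, 6.08 and 6.37 in pancreas and 5.97, 5.80 and 5.53 in spleen. Its groups overlapped, and both means lay below background, so no fold is given (adjusted p = 1.00). Tnfrsf17 encodes BCMA, the receptor through which plasma cells survive on the cytokine APRIL, and it was below background on every array, at 5.12, 5.14 and 5.52 in pancreas and 5.26, 5.43 and 5.12 in spleen. No difference in Sdc1 or Tnfrsf17 could be measured at these levels.

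**Figure D2:**
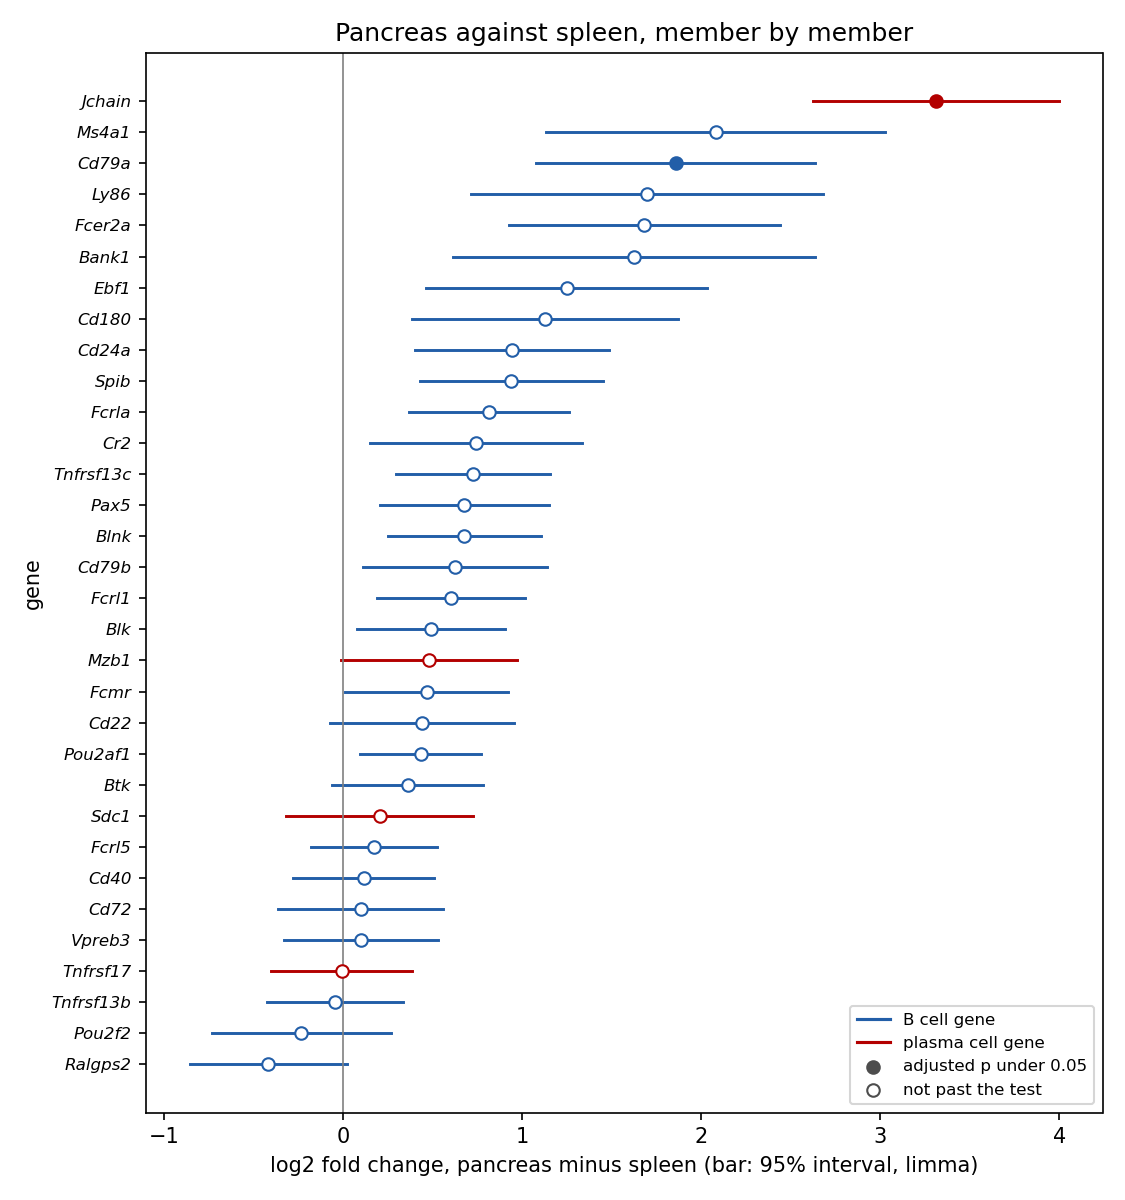
Fitted log2 fold change (horizontal axis, pancreas minus spleen) of each of the 32 genes with its 95% limma interval, from the highest at the top to the lowest. Blue marks B cell genes, red plasma cell genes, and filled points passed the test over all genes; Jchain lies at 3.31 and Mzb1 at 0.48. For genes with a tissue below background, among them Jchain, Sdc1 and Tnfrsf17, the fitted value is not an exact difference.

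Genes of the plasma cell programme outside the chosen set gave 1 call in 16, that of Prdm1. It read 9.72, 9.64 and 9.13 in pancreas and 8.11, 8.40 and 8.36 in spleen (log2 fold change 1.21, limma adjusted p = 0.0215), and effector Treg cells also express it. Among the leave-one-out fits this call held in 1 of 6 (adjusted p up to 0.118), the one without pancreas array 3. The remaining 15, which include the secretory factors Xbp1, Derl3 and Txndc5, did not pass, and the median of the 16 was 0.11. Of the immunoglobulin constant genes, Ighm, Igha and Ighg3 had probe sets of their own, with Ighg3 below background on every array, and 0 of the 3 passed in limma or had an unadjusted p under 0.05. Of the Ighm probe sets, the brightest, used in the fit, read 6.92, 6.94 and 7.95 in pancreas and 7.25, 6.85 and 6.28 in spleen, with overlap. Another read 6.87, 6.31 and 6.77 in pancreas and 6.08, 6.06 and 5.95 in spleen, without overlap, so the Ighm probe sets disagree, and a dimmer one lay below background on every array. Igha, the heavy chain of immunoglobulin A, read 6.03, 6.66 and 9.58 on pancreas arrays 1 to 3 and 6.70, 5.81 and 5.30 on spleen arrays 1 to 3, so that pancreas array 3 alone was high, the array with the lowest Jchain of the 3. A second Igha probe set gave 9.95 on that array and 5.80 and 6.52 on pancreas arrays 1 and 2, against 6.505, 5.70 and 5.18 on spleen arrays.

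Of the antigen receptor genes, Cd79a passed and Cd79b, which encodes its partner chain, did not. Cd79a read 7.73, 6.80 and 8.36 on pancreas arrays 1 to 3, against 5.62, 6.28 and 5.43 on spleen arrays. All pancreas arrays were above background and only spleen array 2 was among the spleen ones. The means were 7.63 ± 0.78 in pancreas and 5.77 ± 0.44 in spleen (SD, n = 3 each), with a log2 fold change of 1.86 ± 0.35 (SE, adjusted p = 0.0482, limma), or at least 2.91-fold with the dim arrays raised to background. The call is a close one: it held without pancreas array 2 or 3 and ended without pancreas array 1 or any one of the spleen arrays (adjusted p up to 0.142). It ended as well with arrays centred on their medians (log2 fold change 1.84, adjusted p = 0.166) or quantile normalized (1.88, adjusted p = 0.0823), where the difference stayed as large. With array weights it held (adjusted p = 0.0323) at a smaller log2 fold change of 0.97. The adjusted p ran from 0.00940 to 0.677 over 14 alternatives.

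Cd79b was bright in both tissues, at 8.75, 8.44 and 9.33 in pancreas and 7.98, 8.28 and 8.40 in spleen. Its groups did not overlap, but the log2 fold change of 0.62 (interval 0.11 to 1.14) did not pass (adjusted p = 0.523). Downstream of the receptor, the adaptor gene Blnk had 1 of 6 arrays above background, too few for a fold. The Src-family kinase gene Blk had a log2 fold change of 0.49, and neither passed. Bank1, the gene of a scaffold protein of B cell receptor signalling, split the pancreas arrays, at 7.74, 5.94 and 8.08, against 5.73, 5.97 and 5.20 in spleen. Pancreas array 2 lay among the spleen arrays, and the gene did not pass (limma adjusted p = 0.228). With the spleen arrays raised to background, its mean was 2.39-fold higher in pancreas. With array weights the log2 fold change was 0.50. Without pancreas array 2 Bank1 passed (limma adjusted p = 0.00515). Btk, the gene of the kinase that couples the receptor to phospholipase C, was below background on every array.

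The rest of the receptor pathway, 18 measured genes that are not members, had 1 gene past the test and a median of 0.08. That gene was Plcg2, the phospholipase that BTK activates in B cells and that myeloid cells use too. It read 6.97, 6.75 and 6.69 in pancreas and 5.74, 6.02 and 5.73 in spleen, at least 1.74-fold higher (adjusted p = 0.0323, limma). Among the leave-one-out fits it passed in 1 of 6, the one without pancreas array 3. The kinase gene Syk (log2 fold change 0.64, adjusted p = 0.469) and the adaptor gene Pik3ap1 (0.47, adjusted p = 0.525) did not pass.

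None of the 5 transcription factor genes passed the test, and 4 of them had an unadjusted p under 0.05, all higher in pancreas. Pax5, which commits cells to the B lineage, read 7.15, 6.34 and 6.90 on pancreas arrays and 6.09, 6.23 and 6.03 on spleen arrays. The groups did not overlap, with all spleen arrays just above background (log2 fold change 0.68, adjusted p = 0.332, limma). Ebf1, which acts ahead of Pax5 and is also expressed in stromal cells, read 6.83, 5.20 and 6.56 in pancreas and 5.23, 4.74 and 4.88 in spleen. Pancreas array 2 lay among the spleen arrays, and Ebf1 did not pass (adjusted p = 0.241). All its spleen arrays were below background, and with these raised to it the mean was 1.15-fold higher in pancreas. Without pancreas array 2 Ebf1 passed (limma adjusted p = 0.00940). Spib, the gene of an Ets factor of B cells and plasmacytoid dendritic cells, was below background on all spleen arrays and on pancreas array 2 (5.75). With the spleen arrays raised to background, its mean was 1.20-fold higher in pancreas, and Spib did not pass (limma adjusted p = 0.141).

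Pou2af1 encodes OBF-1, the co-activator kept from B cells into plasma cells, and it had little spread, at 7.81, 7.75 and 7.89 in pancreas and 7.38, 7.43 and 7.33 in spleen. Its arrays did not overlap, by a log2 fold change of 0.43 (interval 0.09 to 0.77, adjusted p = 0.454). Pou2f2, the gene of Oct-2, lay at 8.61 ± 0.22 in pancreas and 8.84 ± 0.43 in spleen (SD, n = 3 each) with overlapping arrays (-0.23, adjusted p = 1.00).

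Among the 12 measured surface receptors and co-receptors, all 12 had a higher mean in pancreas, 9 had an unadjusted p under 0.05 and 0 passed after adjustment (limma). Ms4a1 encodes CD20, the classical surface marker of mature B cells. It read 8.0, 6.32 and 8.26 on pancreas arrays 1 to 3 and 5.59, 5.77 and 4.98 on spleen arrays. The spleen arrays were all below background and the pancreas arrays all above it, with pancreas array 2 the lowest of the 3. The fitted log2 fold change was 2.08 ± 0.43 (SE, adjusted p = 0.0678), or at least 2.89-fold. Fcer2a, the gene of the low-affinity IgE receptor CD23 of follicular B cells, read 6.67, 6.22 and 7.59 in pancreas and 5.04, 5.70 and 4.69 in spleen. It too lay above background in pancreas and below it in spleen (1.68 ± 0.34 SE, adjusted p = 0.0648, at least 1.78-fold). Both Ms4a1 and Fcer2a passed without pancreas array 2 and without pancreas array 3, and in none of the other 4 leave-one-out fits.

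Cd180 and Ly86 encode RP105, a Toll-like receptor relative of B cells and macrophages, and MD-1, the secreted protein that binds it. Ly86 read 8.42, 6.98 and 9.13 in pancreas and 6.82, 6.62 and 5.99 in spleen (log2 fold change 1.70, adjusted p = 0.173). With its dim spleen arrays raised to background, the mean of Cd180 was 1.97-fold higher in pancreas (limma adjusted p = 0.286). Its pancreas array 2 lay among the spleen arrays. Both were lowest on pancreas array 2 among the pancreas arrays, and without it both passed (limma adjusted p = 0.00940 for Ly86 and 0.0331 for Cd180).

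Cd24a, the gene of the heat-stable antigen of immature B cells, differed by 0.94 without overlap and without passing. Fcrla, which encodes an intracellular Fc receptor-like protein, was at least 1.57-fold higher, also without overlap or a pass. Fcrl1, an Fc receptor-like gene of B cells, differed by 0.60 without overlap. The IgM Fc receptor gene Fcmr (0.47) and Cd22, the gene of an inhibitory sialic acid-binding receptor (0.44), had overlapping arrays. The complement receptor gene Cr2 and Cd72, a negative regulator of receptor signalling, had means below background in both tissues, and Fcrl5, another Fc receptor-like gene, was below it on every array, so none of the 3 has a fold here.

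The 3 receptors of survival and help differed among themselves. Tnfrsf13c, which encodes the BAFF receptor on which mature B cells depend, read 8.68, 8.44 and 8.97 in pancreas and 7.96, 8.20 and 7.75 in spleen. Its groups did not overlap and it did not pass (log2 fold change 0.73, interval 0.30 to 1.16, adjusted p = 0.189, limma). Tnfrsf13b, which encodes TACI, lay at 8.13 ± 0.14 in pancreas and 8.18 ± 0.20 in spleen (SD, n = 3 each), with an interval of the difference of -0.43 to 0.34. Cd40, the receptor of T cell help, differed by 0.11 (interval -0.28 to 0.51). Of the remaining pair, Vpreb3, a small immunoglobulin-like gene of B cell precursors, was below background throughout. Ralgps2, the gene of a Ral exchange factor, was the member with the lowest value, at 7.62, 6.94 and 7.09 in pancreas and 7.71, 7.56 and 7.65 in spleen (-0.42, interval -0.86 to 0.02, adjusted p = 0.782).

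The B cell genes shared a pattern over the pancreas arrays that Jchain did not have. Pancreas array 2 was the lowest of the 3 for 24 of the 28 B cell genes (85.7%), against 13.2% of all genes. After quantile normalization, which gives all arrays the same width, it was the lowest for 22 of the 28 (78.6%), against 24.6% of all genes. The 24 as deposited include Btk and Fcrl5, below background on every array. They also include Blnk, Cr2 and Cd72, with both means below it, and the order of such dim genes is uncertain. Relative to the mean of the spleen arrays, the median of the B cell genes stood at 0.74, 0.24 and 0.81 on pancreas arrays 1 to 3. On spleen arrays 1 to 3 it stood at -0.00497, 0.13 and -0.09. Array 2 was thus the pancreas array closest to spleen, and the median of the 28 differences went up to 0.84 without it. The SD over the pancreas arrays exceeded that over the spleen arrays for 25 of the 28 genes (89.3%), against 69.9% of all genes, with a median SD of 0.37 in pancreas and 0.20 in spleen, where the medians over all genes were 0.25 and 0.17.

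Jchain was ordered otherwise, at 3.90, 3.58 and 2.46 above the spleen mean on pancreas arrays 1 to 3, and kept that order after quantile normalization (8.69, 8.498 and 7.61). These distances are to spleen values below background and are not exact. Mzb1 was highest on pancreas array 2, as deposited and after quantile normalization, so the pair of plasma cell genes read above background on all pancreas arrays differed in their order. The other pair lay too low to be ordered. With 3 arrays a group the order of arrays is given as a description without a test, and the members read the same 6 RNA samples. The acinar list was highest on pancreas array 2 (10.34, against 9.58 and 9.08 on arrays 1 and 3), and the MHC class II list lowest there (8.03, against 8.37 and 8.495).

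**Figure D3:**
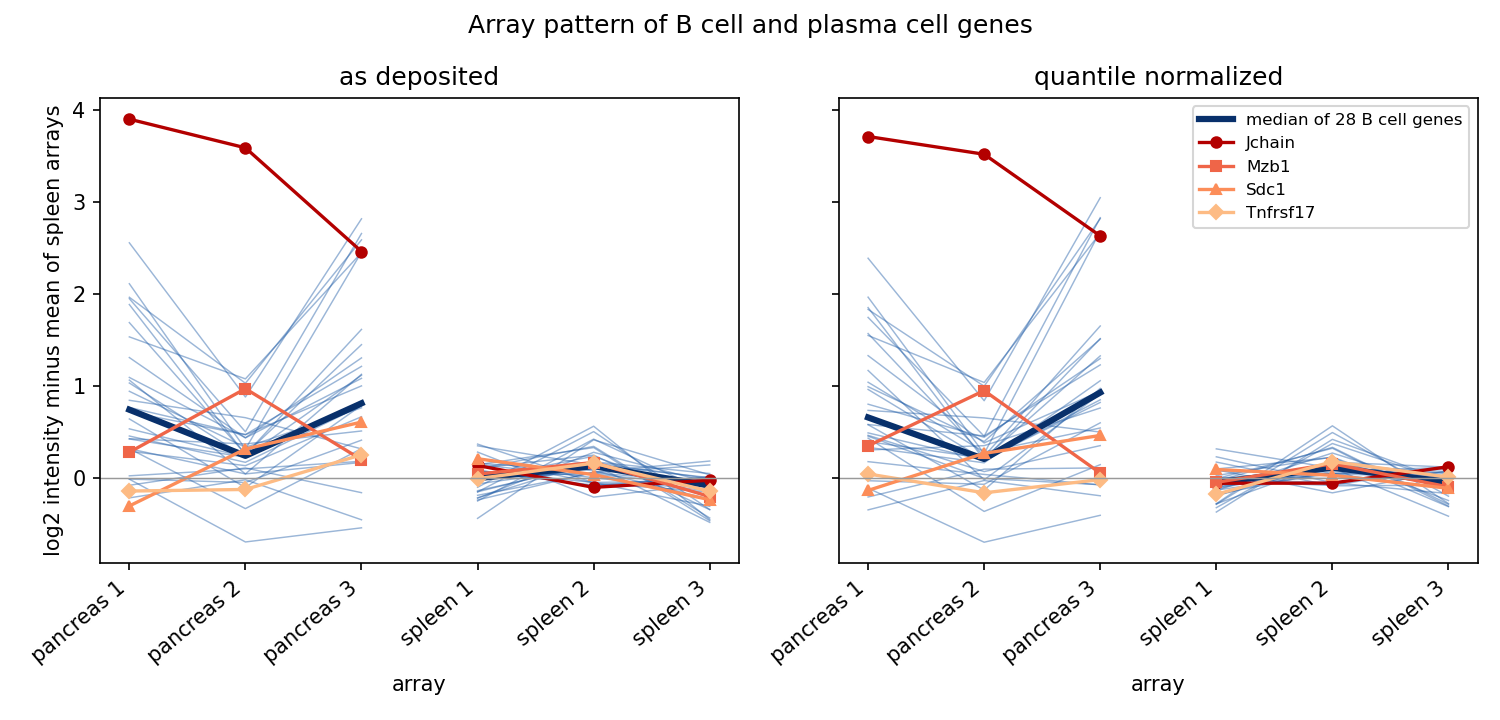
Log2 intensity of each gene minus its mean over the spleen arrays (vertical axis), on each array (horizontal axis), as deposited (left) and quantile normalized (right). Thin blue lines join the values of 1 B cell gene, the thick line is their median, and coloured lines with symbols are the plasma cell genes; the B cell median dips on pancreas array 2 in both panels, while Jchain is lowest on pancreas array 3.

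The genes shared by antigen-presenting cells are set beside these. H2-Aa, an MHC class II chain gene, read 9.22, 7.99 and 9.21 in pancreas and 5.99, 6.55 and 6.35 in spleen (log2 fold change 2.51, limma adjusted p = 0.00506). Cd74, the gene of the class II invariant chain, read 10.15, 9.63 and 10.61 in pancreas and 7.44, 8.37 and 7.87 in spleen (2.24, adjusted p = 0.00586). Both were lowest on pancreas array 2 among the pancreas arrays, as most B cell genes were. Genes of other B cell stages gave no call: 0 of 5 measured germinal centre genes and 0 of 6 precursor genes passed, with 0 at an unadjusted limma p under 0.05 in either list. Among these, Mybl1, Gcsam, Rag1, Rag2 and Dntt were not above background on any array. For the plasmacytoid dendritic cell list, which shares Spib and Mzb1 expression, 0 of 5 passed (1 higher and 1 lower at an unadjusted limma p under 0.05).

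**Figure D4:**
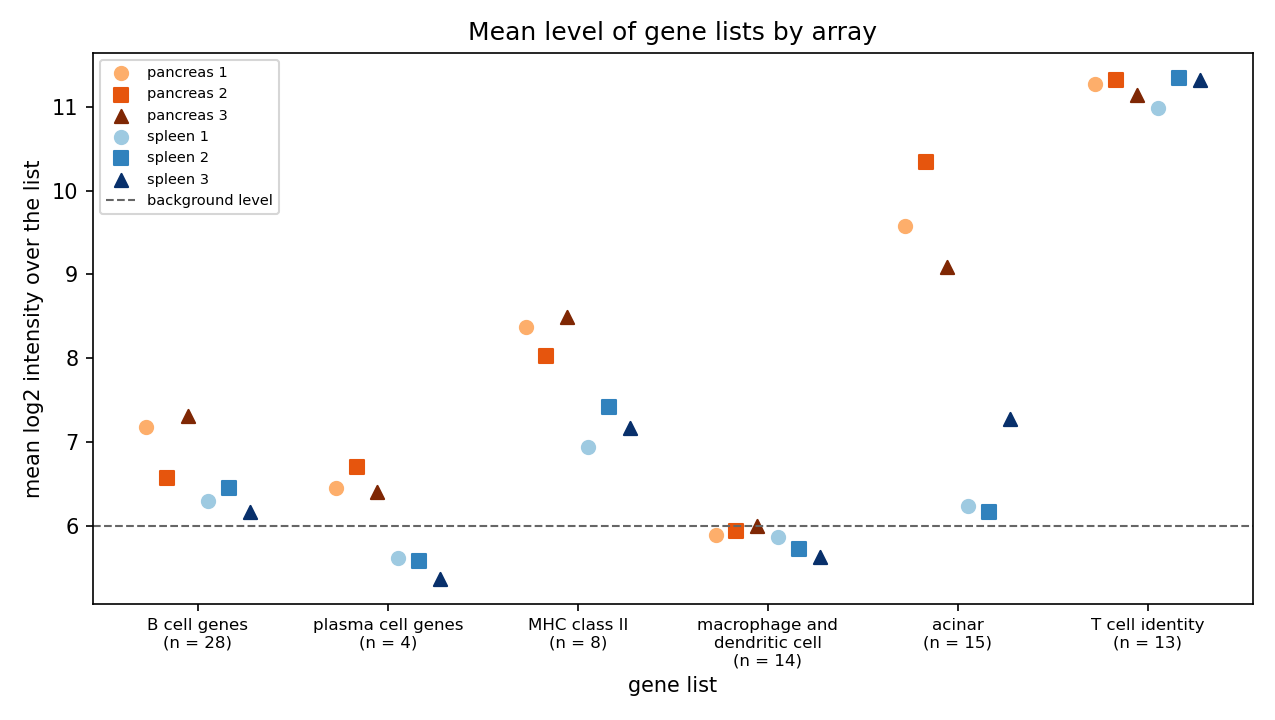
Mean log2 intensity over each gene list (vertical axis) on each array, with pancreas arrays left of spleen arrays within a list and the number of measured genes under its name. The dashed line is the background level; the B cell, plasma cell, MHC class II and acinar lists have all 3 pancreas arrays above the spleen arrays, as has the macrophage and dendritic cell list by a small margin (lowest 5.89 in pancreas, highest 5.87 in spleen), and the T cell identity list has not.

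Levels above background were seen in spleen as well. Of the 28 B cell genes, 19 (67.9%) were above background on all 3 pancreas arrays, against 54.0% of all genes. On all 3 spleen arrays 11 (39.3%) were above it, against 55.6% of all genes. Below it on all 3 spleen arrays were 12 (42.9%), near the 37.2% of all genes. Below it on all 3 pancreas arrays were 3 (10.7%), against 34.5% of all genes. Of the 4 plasma cell genes, 2 were above background on all pancreas arrays, Jchain and Mzb1, and 0 on all spleen arrays. The 11 read on all spleen arrays were Cd79b, Pax5, Pou2af1, Pou2f2, Cd22, Fcmr, Fcrl1, Tnfrsf13b, Tnfrsf13c, Cd40 and Ralgps2. None of these 11 was past the test, and their log2 fold changes ran from -0.42 for Ralgps2 to 0.73 for Tnfrsf13c.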

How the data were processed

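Per the submitters' processing notes, RMA and Affymetrix Power Tools made the values, from total RNA that was amplified (Ambion WT Expression Kit) and read on Affymetrix Mouse Gene 1.0 ST arrays. What the authors deposited is intensity on a linear scale, 1 value per probe set and array. The columns do not share 1 distribution (medians 82.0 to 92.0), and the step that normalised arrays together is not given in the sources read here. The number of arrays limits the precision.

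The values were taken to log2 with no further normalization. Of 24922 probe sets, 21425 name 1 gene in the platform annotation. The probe set with the highest mean was kept for each gene, which gave 19752 genes. Background was the 95th percentile of mean log2 values over 1194 olfactory and vomeronasal receptor genes, an intensity of 63.9. Where the tissue with the lower mean lay below it, its dim arrays were raised to that level. Where the other tissue was above background on every array, the fold between the means is then a lower bound as regards background only. It does not allow for the spread between arrays.

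All genes were fitted with limma 3.58.1 in R 4.3.3 (lmFit, eBayes, 6 arrays, no covariates, two-sided), adjusted by Benjamini-Hochberg over all genes, with a threshold of 0.05. The fit was tested on simulated data. Members and gene lists were chosen with earlier results of these data known, so lists are described by counts and medians. Values on each array are given for members past the test, for Cd79a, Cd79b, Ms4a1, Pax5, Ebf1, Pou2af1 and the plasma cell genes by rule, and for Bank1, Fcer2a, Ly86, Tnfrsf13c, Ralgps2 and Igha as chosen after their values were seen. From other lists up to 4 genes with the smallest adjusted p are named; genes named there only as list members or as below background were named for their role. Promoters are RefSeq's (GRCm38.p6). Figures used matplotlib 3.10.9.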

Additional observations from a re-analysis of the deposited data

How the results depend on the processing

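Jchain passed in 13 of 14 alternatives. The exception was background as a floor (adjusted p = 0.414), which leaves 6588 genes without spread, and its adjusted p otherwise lay between 3.39e-08 and 0.0178. The 2 members higher in pancreas became 1 with arrays centred on their medians and 1 with quantile normalization. They became 0 with the floor (0 lower), 4 with a trended and robust variance, and 7, with 1 lower (Ralgps2), with array weights. With 1 array left out they ran from 1 to 8. The 134 genes past the test overall became 38 with centring, 203 with quantile normalization, 3 with the floor and 1671 with array weights, which rest mostly on pancreas array 2 and spleen array 2, and ran from 64 to 262 with 1 array left out. The B cell median of 0.65 fell to 0.31 with array weights. The plasma cell median of 0.34 was 1.90 over genes with a mean above background, a setting that left 2 of the 4 genes. Array weights turned Cd22 (-0.0392), Cd72 (-0.31) and Cd40 (-0.0712) below 0. With 1 array left out, differences near 0 changed sign, with ranges of -0.00998 to 0.32 for Cd72, -0.14 to 0.0709 for Tnfrsf17, -0.16 to 0.0400 for Tnfrsf13b, -0.0337 to 0.20 for Cd40 and -0.0573 to 0.28 for Vpreb3. Outside the set, Plcg2 passed in 6 and Prdm1 in 7 of 14 alternatives. For changes whose construction does not show it, the cause was not tested.

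The labels do not say whether the replicate numbers pair the arrays. Deviations of same-numbered arrays correlated at -0.46, 0.11 and -0.68 across genes, and each pancreas array correlated best with a spleen array of another number. For pancreas arrays 1 and 3 the best correlated spleen array was also alike in width. The interquartile range was 3.07 and 3.00 on pancreas array 1 and spleen array 3, and 2.23 and 2.49 on pancreas array 3 and spleen array 1. Pancreas array 2, at 2.72, was nearer in width to spleen array 2 (2.80, correlation 0.11) than to spleen array 3 (correlation 0.42). The part of width in these correlations was not tested, so they cannot decide whether the arrays are paired. With the replicate number as a block, 6 members passed as higher in pancreas and 132 genes overall.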
